A study of Mus musculus with 10 samples.

Results

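Autophagy begins when the ULK kinase complex and the VPS34 lipid kinase complex act at the site where the phagophore forms. The account below covers the transcripts of 10 genes of this step in mouse bone-marrow-derived macrophages. The genes are those for the ULK complex (Ulk1, Ulk2, Rb1cc1, Atg13 and Atg101), for the transmembrane protein ATG9A (Atg9a) and for the autophagy-specific VPS34 complex, known as complex I (Becn1, Pik3c3, Pik3r4 and Atg14). They were taken by symbol from a fixed list, and all 10 were found among the 54307 genes of the count table and among the 12411 genes expressed strongly enough to be tested.

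The study compared macrophages from wild-type control mice (5 libraries) with macrophages from mice labelled hWDFY3KI/KI, a knock-in that overexpresses human WDFY3 (5 libraries). All donors of marrow were male and aged 6 to 8 weeks, with 1 mouse behind each library according to the labels. Bone marrow of both groups was grown in medium with L-929 fibroblast-conditioned supernatant, and RNA was taken at day 7. The labels used here do not say which promoter or locus drives the human gene, nor in which cells, and they name no strain. WDFY3 (ALFY) acts as a scaffold in selective autophagy, the removal of chosen cargo such as protein aggregates, so the comparison asks whether its overexpression goes together with other levels of the initiation genes.

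In the classical pathway, the kinase mTORC1 holds the ULK complex inactive while nutrients are plentiful, and AMPK promotes its activity when energy is short. Active ULK1 or ULK2 phosphorylates its own partners and subunits of the VPS34 complex, which then makes the lipid phosphatidylinositol 3-phosphate (PI3P) on the forming membrane, while vesicles with ATG9A supply lipid. Much of this control acts on proteins, which were not measured here. In macrophages the VPS34 complexes also serve phagosome maturation and LC3-associated phagocytosis, a process that uses Beclin 1 and VPS34 but not the ULK complex.

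The total estimated count was 14.6 to 36.4 M per library. The 8 macrophage markers were all detected and summed to between 24013 and 37070 CPM (the count of a gene as a share of its library's TMM-adjusted total, times 1 M). Most of this sum was Lyz2, at 18250 to 31387 CPM. The 10 stromal markers summed to 117 to 196 CPM in 3 libraries (controls 1 and 4 and knock-in 4) and to 2.29 to 27.7 CPM in the other 7. Neutrophil-lineage markers were also highest in those 3 libraries, at 19.8 to 50.7 CPM against 3.73 to 13.7. Markers of T and B cells, dendritic cells and mast cells summed to at most 4.46 CPM per list, and osteoclast markers to 120 to 202 CPM, with Calcr at 0. In these lists 0 of the markers that could be tested passed, against 0.0806% of all genes. For T and B cells 2 of 6 markers were tested, and for mast cells and basophils 1 of 4. The macrophage marker Adgre1 had 860 to 1042 CPM in the controls and 808 to 847 CPM in the knock-in libraries. Its groups thus did not overlap, as for 1.32% of all genes, while those of the other macrophage markers did. Mouse Wdfy3 had 109.8 ± 9.83 CPM (control) and 119.7 ± 6.19 CPM (knock-in) (log2 fold change 0.13 ± 0.066 SE, edgeR adjusted p = 0.811, n = 5 each). The table counts mouse genes, so this value does not check the human transgene. Whether reads of the human gene were counted for mouse Wdfy3 was not tested.

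Ulk1 and Ulk2 are paralogs, and sequence shared by paralogs could lead reads of one to be counted for the other. Their coding sequences (3171 and 3111 bases in GENCODE M21) were 65.1% identical over 2962 aligned bases, and the longest identical run was 17 bases. The pair of coding windows below, each as long as a read (100 bases), holds the most identical bases of any ungapped window of that length in the alignment. The windows lie in exons 2 to 5 of both genes, in the part that encodes the kinase domain. Capitals mark the 17 bases that differ, and the other 83 are identical.
Ulk1, coding bases 202 to 301, GRCm38 chr5:110798897-110809129 with introns left out, minus strand: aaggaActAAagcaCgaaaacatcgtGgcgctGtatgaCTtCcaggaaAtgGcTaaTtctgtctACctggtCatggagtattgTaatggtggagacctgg
Ulk2, coding bases 181 to 280, GRCm38 chr11:61840125-61853268 with introns left out, minus strand: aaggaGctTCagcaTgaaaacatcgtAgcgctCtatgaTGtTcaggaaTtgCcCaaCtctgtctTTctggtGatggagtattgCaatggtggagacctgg

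Of the words of 31 bases in the annotated Ulk2, Atg101, Pik3c3, Pik3r4 and Atg14 transcripts, 0% occurred on the same strand in transcripts of another gene. For Ulk1 the share was 0.331%, for Becn1 2.04% and for Atg13 2.32%. Rb1cc1 shared 9.36% of its words, nearly all with the annotated gene Gm13961, which had 0 counts in each library. Atg9a and its paralog Atg9b had a longest identical coding run of 15 bases. The words that Atg9a shared (31.96%) lay mostly in Gm29253, a transcript annotated within Atg9a on the same strand, to which 5.9 estimated counts were assigned over all 10 libraries. On the opposite strand, 40.0% of the words of Becn1 occurred elsewhere, mostly in its antisense neighbour Cntd1, whose exons overlap those of Becn1 by 3104 bases and which had 95.1 counts over the 10 libraries. The libraries are strand-specific, but the labels and notes do not say whether strand was used in quantification, so reads from the overlap of Becn1 and Cntd1 cannot be placed with certainty.

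For none of the 10 genes was a difference between knock-in and control macrophages detected beyond the spread between libraries, and the 95% intervals of all 10 lay between changes of -14.6% and 19.5%. With edgeR's quasi-likelihood test, 0 of 10 had an adjusted p under 0.05, against 0.0806% of all genes tested (10 genes). An unadjusted p under 0.05 was found for 0 of the 10, against 6.21% of all genes, and the groups did not overlap for 0 of the 10, against 1.32% of all genes. DESeq2 also called 0 of them, against 0.378% of the genes it gave an adjusted p, limma-voom called 0 of them (0.0967% of all genes), and limma-trend on the deposited log2 values called 0 (0.0555%). Their log2 fold changes ran from -0.065 (Rb1cc1) to 0.078 (Ulk2) with a median of 0.010, where the median over all genes tested was -0.0046. In bulk RNA, fewer cells of a type and less RNA per cell cannot be told apart.

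**Figure D1:**
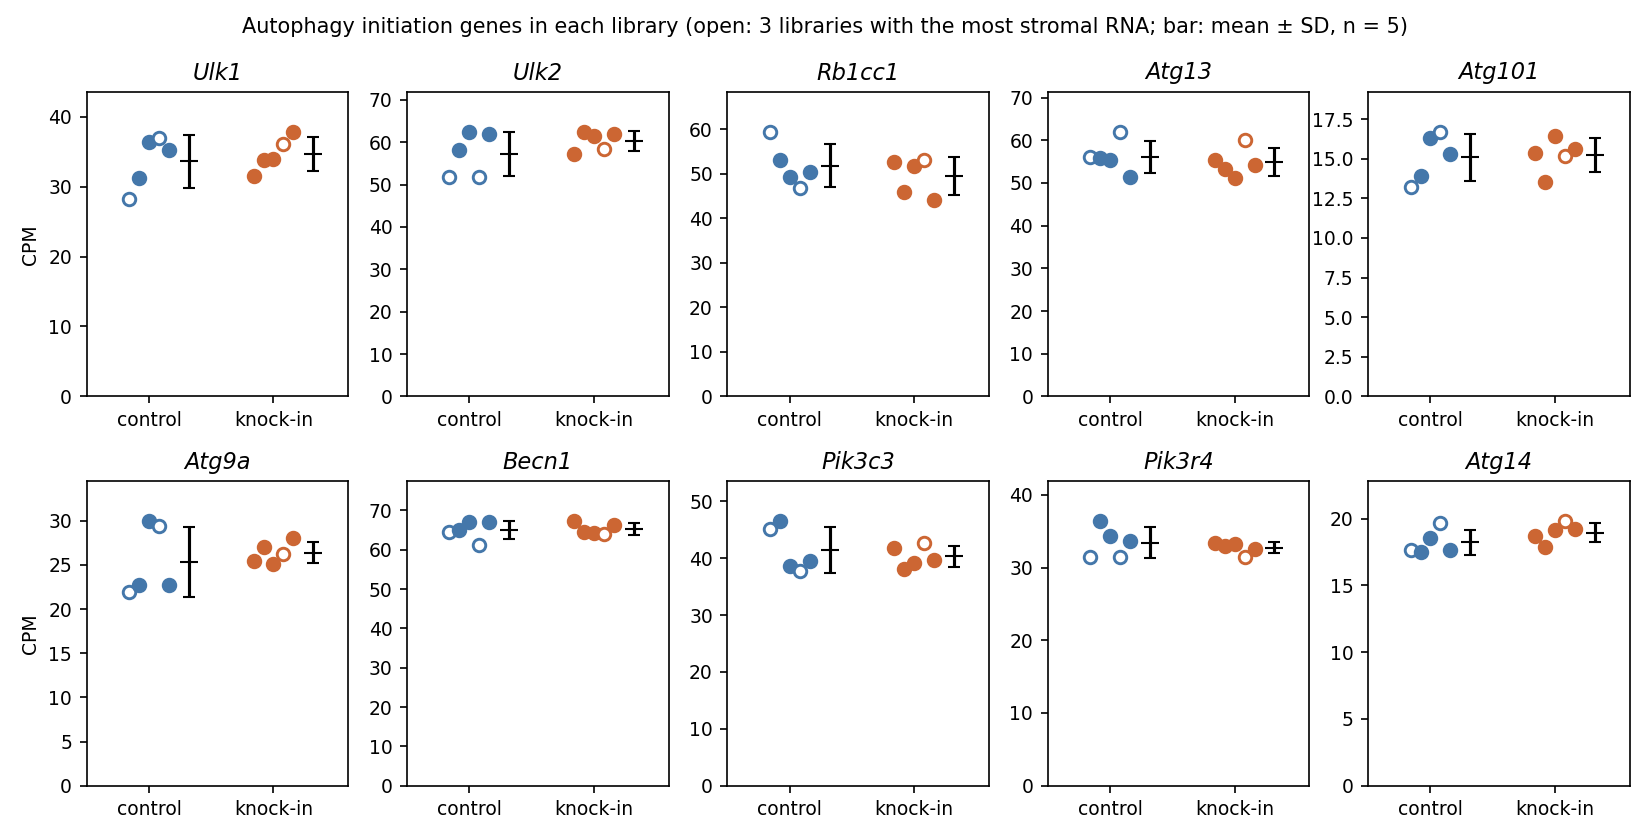
Each panel plots the CPM of 1 gene in the 5 control libraries (blue) and the 5 knock-in libraries (orange), with the mean and SD beside them; open points are the 3 libraries with the most stromal RNA. In every panel the groups overlap, and the SD is smaller in the knock-in group.

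The ULK complex was described first by its kinases. Ulk1 (ENSMUSG00000029512, chromosome 5, 110784488 to 110810097 in GRCm38, minus strand), the serine/threonine kinase that starts the process, was at 28.2, 31.2, 36.4, 37.0 and 35.3 CPM in controls 1 to 5. It was at 31.5, 33.9, 34.0, 36.1 and 37.8 CPM in knock-in 1 to 5. Controls 1 and 2 were lowest among the controls, and 4 of 5 knock-in values lay within the control range. Knock-in against control gave a log2 fold change of 0.044 ± 0.080 (SE), with a 95% interval from -0.13 to 0.22 (edgeR adjusted p = 0.940).

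Ulk2 (ENSMUSG00000004798, chromosome 11, 61775649 to 61855073, minus strand), its close relative that can stand in for it in many cells, was at 51.7, 58.1, 62.3, 51.7 and 61.9 CPM in the controls. The knock-in values were 57.3, 62.5, 61.5, 58.4 and 61.8 CPM. Controls 1 and 4 shared the lowest level, and these are the controls with the most stromal RNA. In the fit its log2 fold change came to 0.078 ± 0.064 and the interval to -0.061 to 0.22 (edgeR adjusted p = 0.867). Without the 3 stromal-rich libraries it was 0.00020, and with the stromal score of each library as a covariate it was 0.043.

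Library depth cancels in the ratio of Ulk1 to Ulk2 counts within a library. Differences between libraries that depend on GC content need not cancel, as the longest transcripts have 58.0% (Ulk1) and 47.0% (Ulk2) GC. The ratio was 0.547, 0.538, 0.584, 0.715 and 0.570 in controls 1 to 5 and 0.551, 0.543, 0.554, 0.620 and 0.613 in knock-in 1 to 5. Control 4 was highest, and the groups overlapped. The mean log2 ratio differed by -0.032 (exact 2-sided permutation test over 252 assignments, p = 0.786, and 0.786 adjusted over 3 ratios). Without control 4 the difference was 0.039 (exact p = 0.460), so its sign rests on that library.

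Rb1cc1 (ENSMUSG00000025907, chromosome 1, 6206197 to 6276648, plus strand) encodes FIP200, the large scaffold on which the complex assembles. Its levels were 59.5, 53.1, 49.4, 46.9 and 50.3 CPM in controls 1 to 5, and 52.7, 45.9, 51.9, 53.1 and 44.0 CPM in knock-in 1 to 5. In CPM, control 1 was the highest library and knock-in 5 the lowest. On the deposited log2 values control 1 was also highest, but control 3 was lowest (9.83, against 9.87 in knock-in 5). Its log2 fold change of -0.065 ± 0.075 had the lowest bound of the 10 genes, as the interval ran from -0.23 to 0.098 (edgeR adjusted p = 0.906). It was -0.0091 without control 1, -0.026 without knock-in 5 and -0.098 without control 4.

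Atg13 (ENSMUSG00000027244, chromosome 2, 91674618 to 91710576, minus strand), the adaptor that links the kinase to FIP200, was at 56.2, 55.8, 55.3, 62.0 and 51.3 CPM in the controls. In knock-in 1 to 5 it was at 55.5, 53.4, 51.2, 60.2 and 54.3 CPM. The highest value of each group was in replicate 4, and both of these libraries are among the 3 with the most stromal RNA. The fitted log2 difference was -0.033 ± 0.060, from -0.16 to 0.098 (edgeR adjusted p = 0.941).

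Atg101 (ENSMUSG00000037204, chromosome 15, 101284272 to 101290945, plus strand), which stabilises ATG13, had the lowest CPM of the 10 genes. Its control values were 13.2, 13.9, 16.3, 16.7 and 15.3 CPM, and its knock-in values 15.4, 13.5, 16.4, 15.2 and 15.6 CPM. All knock-in values lay within the control range, where controls 1 and 2 were low, as for Ulk1. Its log2 difference was 0.014 ± 0.083, from -0.17 to 0.19 (edgeR adjusted p = 0.987).

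Atg9a (ENSMUSG00000033124, chromosome 1, 75180860 to 75192196, minus strand) encodes the lipid scramblase of the vesicles that seed the phagophore. Controls 1 to 5 had 21.9, 22.7, 30.0, 29.4 and 22.7 CPM, and knock-in 1 to 5 had 25.4, 27.0, 25.1, 26.2 and 28.0 CPM. Controls 3 and 4 stood above the other 3 controls, and all 5 knock-in libraries fell between these sets. The control values therefore had the largest relative spread of the 10 genes (15.7% of the mean, against 4.53% in the knock-in group). Its log2 fold change of 0.054 ± 0.094 had the widest interval, from -0.15 to 0.26 (edgeR adjusted p = 0.937). Leaving out control 1, 2 or 5 gave 0.0064, 0.015 or 0.019, and leaving out control 3 or 4 gave 0.12.

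**Figure D2:**
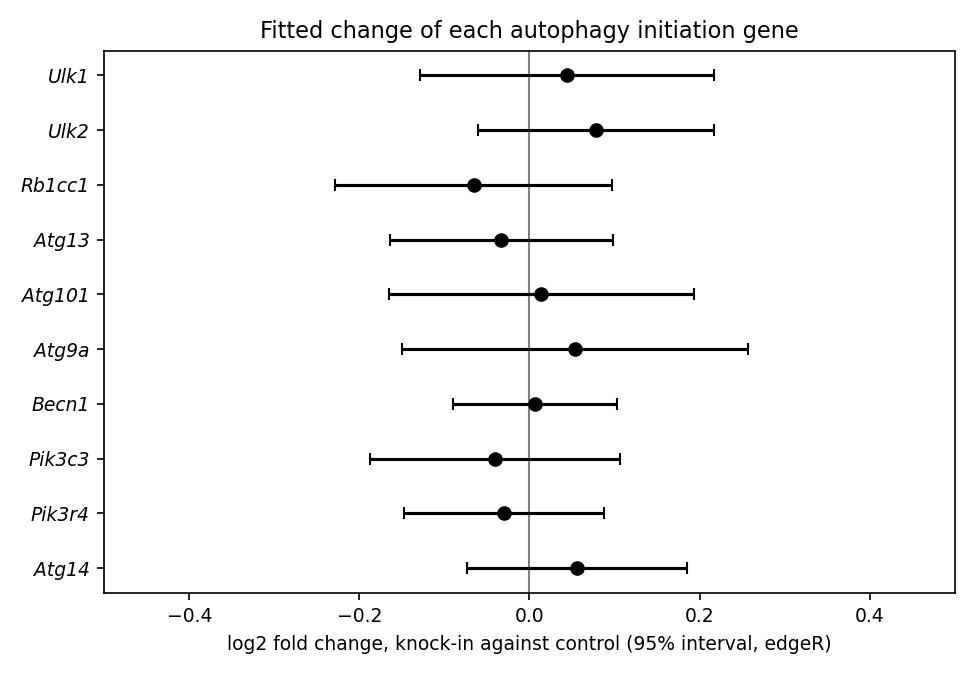
Points are the fitted log2 fold changes of knock-in against control for the 10 genes, and bars are 95% intervals from edgeR's quasi-likelihood fit (n = 5 each). Every interval includes 0; the highest bound is that of Atg9a (0.26) and the lowest that of Rb1cc1 (-0.23).

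In the VPS34 complex, Becn1 had the smallest relative spread of CPM of the 10 genes in both groups. Becn1 (ENSMUSG00000035086, chromosome 11, 101285952 to 101302286, minus strand) encodes Beclin 1, the scaffold that BCL2 proteins can bind. Its control values were 64.5, 65.0, 67.0, 61.3 and 67.0 CPM, with 67.3, 64.4, 64.2, 63.9 and 66.2 CPM in the knock-in libraries. The SD was 3.60% of the mean in the controls and 2.28% in the knock-in group. On the deposited log2 values Becn1 was not the steadiest. Its SD there was 0.052 (control) and 0.058 (knock-in), against 0.042 and 0.029 for Atg14. Becn1 had a log2 fold change of 0.0063 ± 0.045, and its interval ran from -0.090 to 0.10 (edgeR adjusted p = 0.990). As a fold this interval covers changes from -6.06% to 7.38%.

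Pik3c3 (ENSMUSG00000033628, chromosome 18, 30272747 to 30348126, plus strand) encodes VPS34, the class III lipid kinase itself. Controls 1 to 5 had 45.1, 46.6, 38.6, 37.7 and 39.5 CPM, and knock-in 1 to 5 had 41.9, 38.2, 39.2, 42.7 and 39.8 CPM. Controls 1 and 2 were the highest libraries, the reverse of their place for Ulk1, Atg101 and Atg9a. The fit gave a log2 fold change of -0.041 ± 0.068, from -0.19 to 0.11 (edgeR adjusted p = 0.935).

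Pik3r4 (ENSMUSG00000032571, chromosome 9, 105642978 to 105687657, plus strand) encodes VPS15, the regulatory subunit that anchors VPS34. Controls 1 to 5 stood at 31.5, 36.4, 34.35, 31.4 and 33.6 CPM, and knock-in 1 to 5 at 33.4, 33.0, 33.3, 31.5 and 32.5 CPM. The lowest value of the knock-in group (replicate 4) and both of the lowest controls (1 and 4) are the 3 libraries with the most stromal RNA. Between the groups the log2 fold change was -0.030 ± 0.054, from -0.15 to 0.087 (edgeR adjusted p = 0.940).

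Atg14 (ENSMUSG00000037526, chromosome 14, 47540893 to 47570649, minus strand) encodes the subunit that brings VPS34 to the site of autophagosome formation and sets complex I apart from complex II. Its levels were 17.6, 17.5, 18.5, 19.7 and 17.7 CPM in controls 1 to 5, and 18.7, 17.9, 19.1, 19.8 and 19.3 CPM in knock-in 1 to 5. All 5 knock-in values lay above the control median, but 4 of them were within the control range. The fitted log2 difference was 0.056 ± 0.060, from -0.073 to 0.19 (edgeR adjusted p = 0.899).

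Complex II holds UVRAG in place of ATG14 and acts on endosomes, so the ratio of Atg14 to Uvrag sets the transcripts of the alternative subunits against each other. Counts of Atg14 per count of Uvrag were 0.311, 0.309, 0.349, 0.359 and 0.332 in the controls and 0.365, 0.320, 0.345, 0.369 and 0.355 in the knock-in libraries. The mean log2 ratio was -1.59 ± 0.096 and -1.51 ± 0.082 (SD, n = 5 each), a difference of 0.079 (exact 2-sided permutation p = 0.190, adjusted over 3 ratios p = 0.571). On the deposited log2 values the knock-in mean was above the control mean by 0.032 for Atg14 and by 0.055 for Uvrag. Atg14 thus did not rise against Uvrag there, where knock-in 2 was highest for Uvrag (10.46). The ratio of Becn1 to Pik3c3 was 1.57 in the controls and 1.62 in the knock-in group as geometric means (difference 0.043 on the log2 scale, exact permutation p = 0.579, adjusted p = 0.786). For none of the 3 ratios was a difference detected beyond the spread between libraries.

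The 10 genes were next ordered by level per length, as CPM per kb of annotated exons, over all 10 libraries. Atg13 stood first at 12.7 ± 0.788 CPM per kb (SD, n = 10) and was above Ulk2 in 10 of 10 libraries. Ulk2 (9.82 ± 0.695), Atg101 (9.49 ± 0.768), Becn1 (9.21 ± 0.262) and Pik3c3 (9.16 ± 0.679) followed, and neighbours among them had overlapping ranges. A lower set began with Ulk1 at 5.26 ± 0.467 CPM per kb, below Pik3c3 in all 10 libraries. Atg9a (4.49 ± 0.490) and Atg14 (4.30 ± 0.202) could not be ordered, with Atg9a higher in 5 of 10 libraries. Rb1cc1 (3.45 ± 0.302) and Pik3r4 (3.43 ± 0.160) were last and also overlapped. Per kb of annotated exons, Ulk1 was thus at 0.536 times the level of Ulk2, and Becn1 at 1.01 times that of Pik3c3.

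This order depends in part on the length chosen. With the length of the longest annotated transcript, Atg13 (15.4 CPM per kb) and Becn1 (14.9) could not be ordered, with Atg13 higher in 5 of 10 libraries, and Atg14 was last at 4.98. Rb1cc1 and Pik3r4 moved to 6.66 and 6.71 CPM per kb, next to Ulk1 at 6.55. Becn1 and Pik3c3 were no longer at a like level, as Becn1 was above Pik3c3 (12.6) in 10 of 10 libraries. The files give no isoform levels, so the length of the expressed transcript is not known. The statement that Ulk1 was below Ulk2 per kb held with both lengths (6.55 against 10.2 with the longest transcript).

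**Figure D3:**
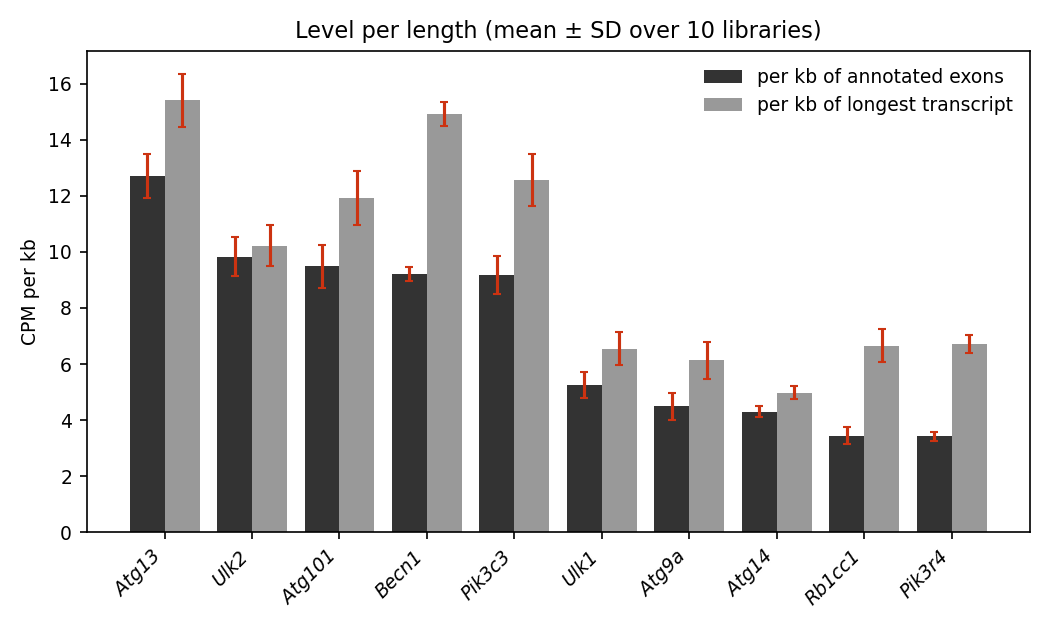
Bars are the mean CPM per kb over 10 libraries and error bars the SD; dark bars divide by all annotated exons, grey bars by the longest annotated transcript. Atg13 is highest per kb of exons, but with the longest transcript it overlaps Becn1 (15.4 and 14.9, Atg13 higher in 5 of 10 libraries), while Rb1cc1 and Pik3r4 rise from 3.45 and 3.43 to 6.66 and 6.71 when the longest transcript is used.

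Among the 10 genes, pairs moved together or apart across libraries, but no pair passed correction. Across 45 pairs of log2 CPM values in 10 libraries, 23 had a positive Pearson r and the median r was 0.00078. The highest was that of Ulk1 and Atg9a (r = 0.76, permutation p = 0.0110, Spearman's rho = 0.81, permutation p = 0.0074). Benjamini-Hochberg adjustment of these permutation values over the 45 pairs gave p = 0.132 and 0.172. Dropping controls 1 and 2, which lay farthest from the median of Ulk1, gave r = 0.49, and the 7 libraries low in stromal RNA gave r = 0.59. The lowest was that of Ulk1 and Rb1cc1 (r = -0.79, permutation p = 0.00656, adjusted 0.132; rho = -0.67, permutation p = 0.0391, adjusted 0.195). It was -0.52 without controls 1 and 2 and -0.74 in the 7 libraries low in stromal RNA. Both relations rest in part on controls 1 and 2.

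Base composition moved with the levels of some of these genes. The GC content of the longest transcript was 58.0% for Ulk1 and for Atg101 and 56.0% for Atg9a, higher than in 91.8%, 91.8% and 84.6% of the tested genes. It was 39.1% for Rb1cc1, higher than in 5.03% of them, and 47.9% for Pik3c3, higher than in 43.6%, so that Pik3c3, which was highest in controls 1 and 2, had a GC content near the middle. In each library, the mean log2 deviation of GC-rich genes (above 53.95% GC, the upper quartile) was set against that of GC-poor genes (below 44.3%, the lower quartile). The difference was 0.19 in control 3 and 0.16 in control 4, but -0.16 in control 1, -0.12 in control 2 and -0.083 in control 5. In knock-in 1 to 5 it was -0.049, 0.072, -0.023, 0.0045 and 0.0037. Controls 3 and 4 were thus tilted towards GC-rich transcripts and had the highest control levels of Atg9a, Atg101 and Ulk1, while controls 1 and 2 had their lowest or, for Atg9a, shared the low levels with control 5. The part of base composition in the correlations was not tested. With this difference as a covariate, 0 of the 10 genes passed, against 0.0725% of all genes. The SE of Atg9a fell most, from 0.094 to 0.045 (log2 fold change 0.065, from -0.034 to 0.16, edgeR adjusted p = 0.727). That of Pik3c3 fell from 0.068 to 0.050, and those of Ulk2 (0.064 to 0.063) and Atg13 (0.060 to 0.057) changed little.

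**Figure D4:**
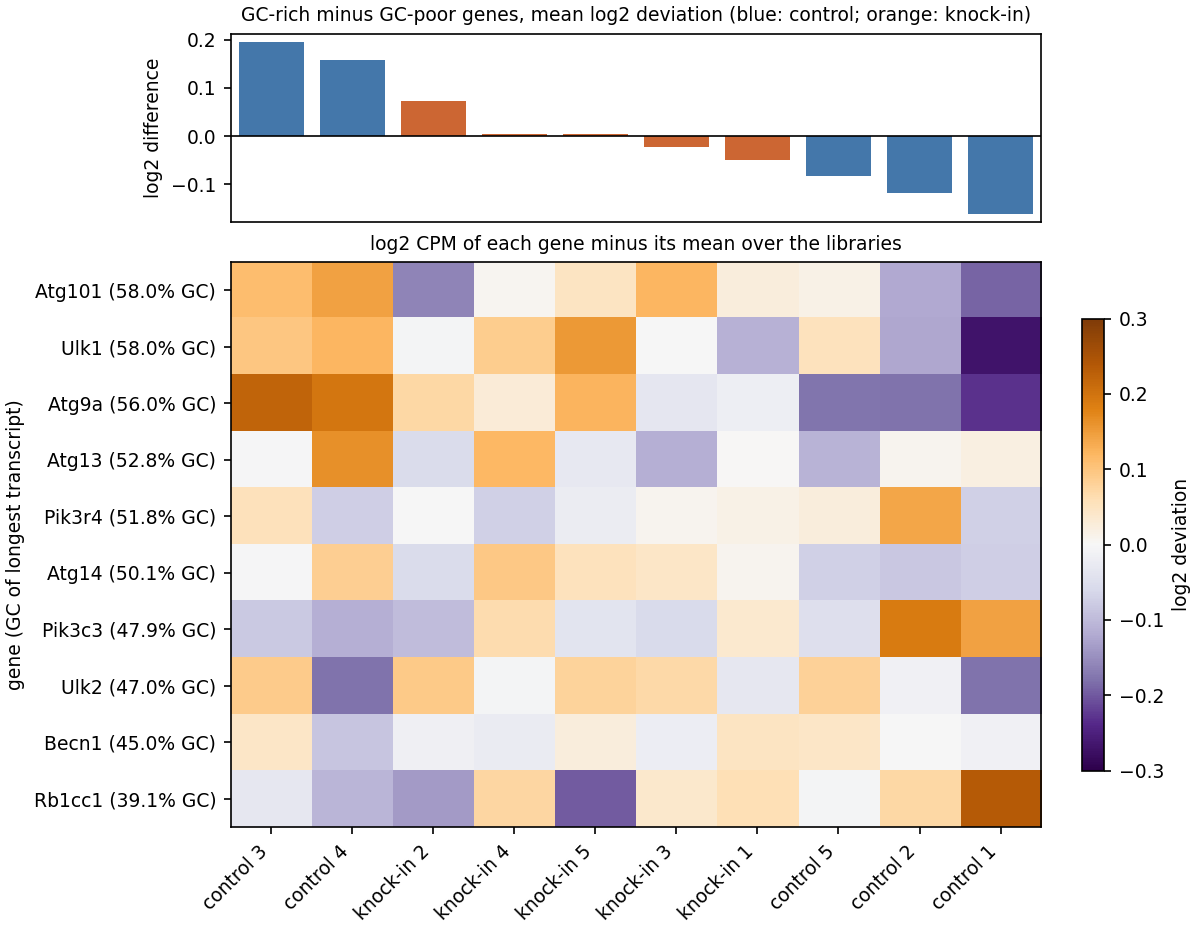
The upper bars give, for each library, the mean log2 deviation of GC-rich minus GC-poor genes (blue control, orange knock-in), from 0.19 in control 3 to -0.16 in control 1. The lower map gives log2 CPM of each gene minus its mean over the 10 libraries, with genes sorted by GC content: Atg101, Ulk1 and Atg9a are high in controls 3 and 4 and low in controls 1 and 2, and Rb1cc1 is highest in control 1.

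Stromal RNA was set beside the members in the same way. Becn1 and Pik3r4 were lower in controls 1 and 4 than in each other control and lower in knock-in 4 than in each other knock-in library, and Atg13 was higher in them in both comparisons. The shifts in the controls were -0.077 for Becn1, -0.15 for Pik3r4 and 0.13 for Atg13 as log2 ratios of means. The other 7 genes did not separate in the same direction in both groups. Of all tested genes, 8.45% were higher and 7.72% lower in these 3 libraries by the same rule, so 3 of 10 is to be read against 16.2%. The part of stromal cells in these levels was not tested. Without the 3 libraries, edgeR called 0 of the 10 genes, against 0.304% of all genes.

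By likeness of pattern across the 10 libraries, the genes closest to Ulk1 among 8475 searched were Zdhhc7 (Pearson r = 0.95), Armc5 (0.94) and Stat5b (0.94). Those closest to Becn1 were Zbtb21 (r = 0.90), Itprid2 (0.89) and Pwp2 (0.89). These are the highest of 8475 values each, over 10 points that share library depth and base composition, and are given as a description.

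The 250 bases before the transcription start (RefSeq, GRCm38.p6) were matched for 7 of the 10 genes, namely Ulk1, Ulk2, Atg13, Atg101, Atg9a, Pik3r4 and Atg14. Ulk2 had the highest GC content there (72.8%) and Ulk1 the next (67.2%), against a median of 52.4% over 32851 promoters. The GC box GGGCGG, read on both strands and the core site of SP-family factors, was present in Ulk1, Ulk2 and Atg14 (3 of 7, against 32.7% of all promoters). Ulk1 held 5 copies and Ulk2 held 1. Both are shown because the paralogs differ in transcript level and in this feature, with the GC boxes in capitals (all on the reverse strand, so they read CCGCCC).
Ulk1, chr5:110810082-110810331, minus strand: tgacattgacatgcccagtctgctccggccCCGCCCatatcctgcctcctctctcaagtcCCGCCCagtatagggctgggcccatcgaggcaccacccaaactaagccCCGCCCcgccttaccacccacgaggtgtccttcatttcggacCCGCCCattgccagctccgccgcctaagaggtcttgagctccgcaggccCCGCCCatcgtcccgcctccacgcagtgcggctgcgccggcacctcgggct
Ulk2, chr11:61855093-61855342, minus strand: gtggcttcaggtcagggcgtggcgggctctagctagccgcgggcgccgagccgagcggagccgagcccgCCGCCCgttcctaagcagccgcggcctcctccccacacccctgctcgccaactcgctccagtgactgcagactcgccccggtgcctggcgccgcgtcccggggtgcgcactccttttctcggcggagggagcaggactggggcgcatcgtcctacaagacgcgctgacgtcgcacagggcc

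The E-box CACGTG, the core of the CLEAR element that TFEB, TFE3 and MITF bind, was found in 0 of the 7 windows and in 6.02% of all promoters. With GT before it and AC after it, the full CLEAR element, it was in 0.240% of all and in 0 of the 7. The FOXO motif GTAAACA (3.17% of all) was also in 0 of 7. The CCAAT box CCAAT was in Atg9a and Pik3r4 (2 of 7, 33.9% of all), and the ETS motif CCGGAAG in Atg101 (1 of 7, 6.91%). All were searched on both strands. A missing match says only that these letters are not in the 250 bases. The factors themselves were measured at 51.0 ± 8.64 and 54.6 ± 3.51 CPM for Tfeb and 14.8 ± 1.04 and 15.5 ± 0.597 CPM for Foxo1 in control and knock-in macrophages (edgeR adjusted p = 0.897 and 0.891).

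Other genes of the pathway were taken in 6 lists of 50 genes in all, of which 46 were tested. With edgeR 0 of them passed over all genes (0.0806% of all tested genes did), and 4 had an unadjusted p under 0.05 (6.21% of all genes). DESeq2 also called 0. The groups did not overlap in CPM for 2 of the 46 (1.32% of all genes). The median log2 fold change was 0.024, with 30 positive and 16 negative. Of all 12411 genes tested, 5999 were positive. Genes of the mTORC1 and AMPK pathways upstream of ULK1 had 12 of 14 positive with a median of 0.045. That list also holds Tsc1, which restrains mTORC1, so its sign count has no single direction. The list of PI3P effectors, lipid transfer proteins and scramblases had 4 of 9 positive with a median of -0.0062. Partners of VPS34 and Beclin 1 had 4 of 10 positive (median -0.028), the transcription factors 4 of 5 (0.032), the PI3P phosphatases and class II kinases 3 of 4 (0.023) and the paralogs 3 of 4 (0.093).

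Tmem41b, a scramblase of the endoplasmic reticulum needed for phagophore growth, had the smallest unadjusted p of these other pathway genes. Controls 1 to 5 had 37.0, 34.7, 36.5, 35.4 and 34.1 CPM, and knock-in 1 to 5 had 38.6, 39.98, 45.05, 40.7 and 44.1 CPM. In CPM, all 5 knock-in libraries lay above all 5 controls. On the deposited log2 values the groups overlapped (knock-in 4 at 9.60, control 4 at 9.63), and the difference was 0.14. These values are regularized, so that size is not directly comparable with the size from edgeR. The edgeR log2 fold change of Tmem41b was 0.23 ± 0.055, from 0.11 to 0.35. Its unadjusted p was 0.00112 and its edgeR adjusted p = 0.330, so it did not pass over all genes. DESeq2 gave an adjusted p = 0.0647, and the adjusted p ranged from 0.0647 to 0.846 over the alternatives.

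Tsc1, a subunit of the TSC complex that restrains mTORC1, was at 49.4, 53.2, 52.6, 51.6 and 48.7 CPM in controls 1 to 5, and at 53.5, 55.7, 53.4, 58.2 and 60.5 CPM in knock-in 1 to 5. Its groups did not overlap in CPM either (log2 0.14 ± 0.052, edgeR adjusted p = 0.706), with 53.4 CPM in the lowest knock-in library and 53.2 CPM in the highest control. On the deposited log2 values they overlapped, with knock-in 3 at 10.06 and control 3 at 10.13. Prkaa1, a catalytic subunit of AMPK, was at 51.2 ± 3.75 and 54.4 ± 3.60 CPM (edgeR adjusted p = 0.856). The PI3P-binding protein gene Wdr45 was at 15.8 ± 1.03 and 14.02 ± 0.759 CPM (log2 -0.17 ± 0.070, unadjusted p = 0.0297, edgeR adjusted p = 0.744).

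Of the VPS34 partners, Nrbf2, a subunit that joins complex I, was at 30.3 ± 4.21 and 27.0 ± 2.22 CPM (log2 -0.17 ± 0.091, edgeR adjusted p = 0.812). Control 1 was highest at 37.4 CPM, and without it the log2 fold change was -0.078. Rubcn, which encodes the inhibitor Rubicon and also takes part in LC3-associated phagocytosis, was at 35.1 ± 1.98 and 37.3 ± 1.02 CPM (log2 0.090 ± 0.052, adjusted p = 0.819). Uvrag was at 55.1 ± 1.80 and 54.3 ± 1.85 CPM. The phosphatase genes Mtmr3 and Mtmr14 were at 79.4 ± 4.12 and 82.5 ± 2.80 CPM, and at 34.9 ± 3.48 and 33.4 ± 1.81 CPM (edgeR adjusted p = 0.881 and 0.906).

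Of the paralogs, Atg9b was far below Atg9a, at 3.63 ± 0.614 CPM (control) and 5.08 ± 1.45 CPM (knock-in). Its control values were 2.84, 3.40, 4.496, 3.52 and 3.90 CPM, and its knock-in values 5.95, 3.25, 5.46, 3.95 and 6.79 CPM, so knock-in 1, 3 and 5 were above the controls and 2 and 4 within their range. Its log2 fold change was 0.49 ± 0.20 (unadjusted p = 0.0276, edgeR adjusted p = 0.744). Adjusted for the stromal score of each library it was 0.33, and without the 3 stromal-rich libraries it was 0.46. The kinase gene Ulk3 was at 10.1 ± 1.23 and 11.3 ± 1.03 CPM (log2 0.17 ± 0.10, edgeR adjusted p = 0.825).

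**Figure D5:**
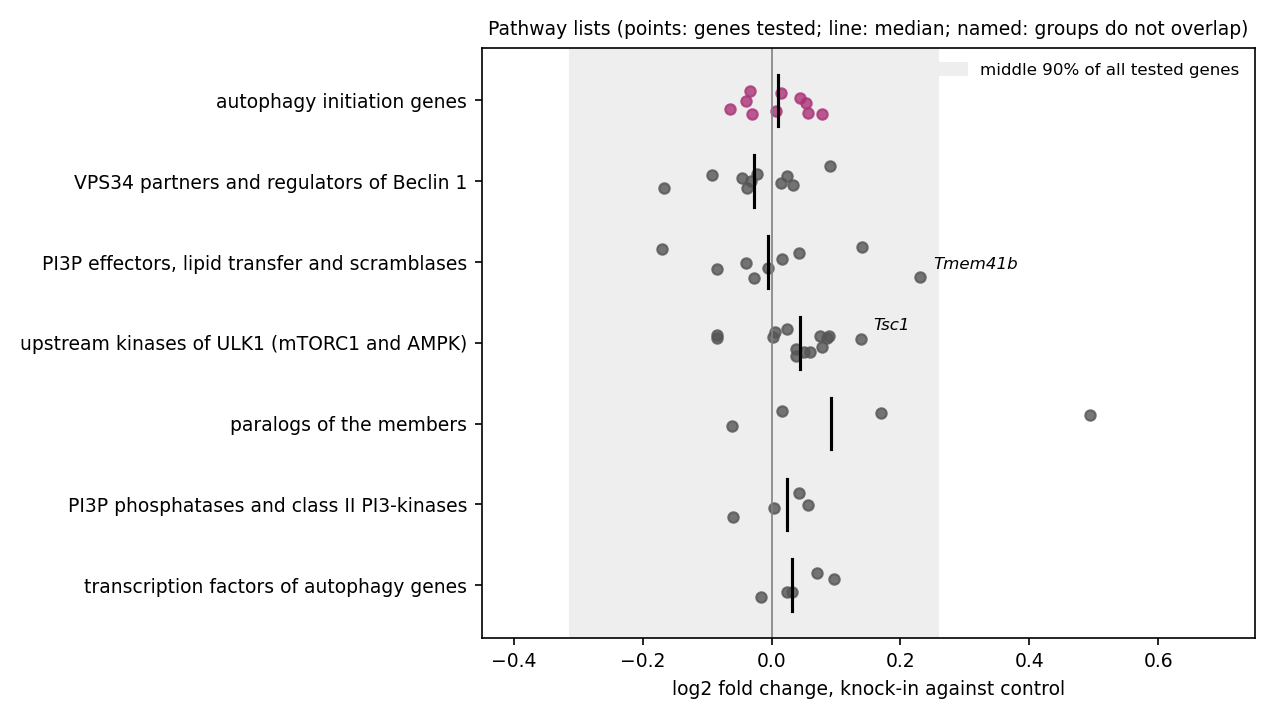
Points are log2 fold changes of knock-in against control for the genes tested in each list, vertical lines are medians, and the grey band holds the middle 90% of all tested genes (-0.31 to 0.26). The 10 initiation genes (top, -0.065 to 0.078) lie inside the band, and the genes named are those whose groups do not overlap in CPM, Tmem41b (0.23) and Tsc1 (0.14).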

How the data were processed

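Strand-specific libraries of poly(A)+ RNA were read as paired ends of 100 bases, with a plan of 20 M reads for each, per the labels. Salmon 1.6.0, MultiQC, DESeq2 1.34.0 and the builds GRCm39 and mm10 appear without roles in the submitters' processing notes. Neither the annotation nor the strand setting is given there. The authors deposited estimated counts by Ensembl gene and, as another table, regularized-log expression on a log2 scale.

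Estimated counts were rounded and fitted with edgeR 4.0.16 in R 4.3.3: TMM factors, filterByExpr (minimum count 10, minimum total 15), robust quasi-likelihood F-test, no covariates, all 10 libraries. P-values were Benjamini-Hochberg adjusted over 12411 genes (threshold 0.05). The script was tested on simulated data. Errors are SD over 5 libraries for CPM and SE for log2 fold changes; correlations use log2 CPM with a prior count of 2. Ratios were compared with exact permutation tests. Pairs of libraries within a group had chi-square values of 8.75 to 54.5 per gene, far above sampling noise, and all 10 were kept as separate replicates. Coordinates, lengths and transcripts come from GENCODE M21 (GRCm38) by gene ID, which matched 51482 of 54307 IDs; the count files carry no coordinates.

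Alternatives were other scaling factors (RLE, upper quartile), other tools (DESeq2 1.42.0, limma-voom and limma-trend with limma 3.58.1, the last on the deposited log2 values), 2 other filters, no robust estimation, a replicate block, each library left out, a prior count of 0.5 for ratios and the longest transcript as length. Fits that left out the 3 stromal-rich libraries, or used a stromal score or the GC difference as covariate, were added after seeing the data. The members and lists were chosen with earlier results of these data known. Named are the 10 members, Wdfy3, Uvrag, the 2 genes of each pathway list with the smallest p, the 3 nearest patterns of Ulk1 and of Becn1, and genes that share sequence with a member.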

Additional observations from a re-analysis of the deposited data

Results flagged for a closer look

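The ratio of Ulk1 to Ulk2 counts in the control libraries had 1 library far from the others. Control 4 was at 0.715, and the other controls were at 0.538 to 0.584. On the log2 scale the gap of control 4 to the nearest control was 0.711 of the range of the 5 values, just above the critical value of Dixon's test. This was 1 of 54 groups of 5 values examined, and chance alone gives about 1 in 20. Control 4 is also among the 3 stromal-rich libraries, and its difference between GC-rich and GC-poor genes was 0.16. Control 3, with 0.19, had the next highest control ratio (0.584). In the knock-in group the library with the highest such difference (knock-in 2, 0.072) had the lowest ratio (0.543). The part of either in the ratio was not tested.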

How the results depend on the processing

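Over 22 alternative fits, 0 of the 10 genes and 0 of the other pathway genes passed in any, with adjusted p from 0.6625 to 0.9997 for the 10. Of the 220 log2 fold changes of the 10 genes, 207 kept their sign and 13 did not, all close to 0, and the cause was not tested. On the deposited log2 values Becn1 was at -0.030, Pik3r4 at 0.0050 and Mtmr14 at 0.019. With the 3 stromal-rich libraries left out, Becn1 was at -0.017 and the log2 ratio of Ulk1 to Ulk2 at 0.0010, and with the stromal score as a covariate Becn1 was at -0.013. Leaving out 1 library at a time gave -0.010 to 0.085 for Ulk1, -0.028 to 0.058 for Atg101, -0.070 to 0.0084 for Atg13, -0.012 to 0.018 for Becn1, -0.073 to 0.0046 for Pik3c3, -0.051 to 0.0029 for Pik3r4 and -0.064 to 0.039 for the ratio of Ulk1 to Ulk2. Without a change of sign, it gave 0.045 to 0.11 for Ulk2, -0.098 to -0.0091 for Rb1cc1, 0.0064 to 0.12 for Atg9a, 0.037 to 0.090 for Atg14 and -0.21 to -0.078 for Nrbf2. Over all genes, 10 passed in edgeR, 52 in DESeq2, 38 without the 3 stromal-rich libraries, and 6 to 23 when 1 library was left out (6 without control 2, knock-in 1, 2 or 3, and 23 without knock-in 4). With the replicate number as a block 12 passed, and the log2 fold changes of the 10 genes ran from -0.064 to 0.081. The numbers are not said to pair mice: same-numbered libraries correlated at -0.20 to 0.51, and 2 of 5 pairs correlated best with their own number. The ratio of Ulk1 to Ulk2 differed by -0.032 within numbers (exact sign-flip p = 0.75).
At the lowest count of each of the 10 genes over all 10 libraries, from 208 (Atg101) to 991 (Becn1), the counting error was 6.93% to 3.18%. This error was above the relative spread of the knock-in libraries for 4 genes (Atg9a, Becn1, Pik3r4 and Atg14). It was above that of the controls for 1 gene (Atg14). Where the lowest count was in a control library, the error in the knock-in libraries was smaller than the value used.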

Other observations

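The relative spread of CPM of each of the 10 genes was smaller in the knock-in libraries than in the controls. The median coefficient of variation of their CPM was 9.21% in the controls and 4.597% in the knock-in group. Over all tested genes it was 11.3% and 8.44%, and 66.0% of the genes had the larger value in the controls. On the deposited log2 values the pattern did not hold for all 10 genes. There the SD was larger in the knock-in group for Becn1 (0.058 against 0.052) and Atg13 (0.057 against 0.054), and smaller for the others. The difference between GC-rich and GC-poor genes also varied more among the controls (-0.16 to 0.19) than among the knock-in libraries (-0.049 to 0.072). No test of the spread was made, since the pattern was noticed in these data and the genes share the same 10 libraries.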
